A study of Mus musculus with 11 samples.

Results

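Cholangiocytes, the epithelial cells that line the bile ducts, were compared between mice that had recovered for 15 days from a bile duct injury and mice taken at the end of the injury. The recovered mice (R15, n = 3) had eaten a diet with DDC, a porphyrin-raising compound that injures bile ducts, for 10 days and had then been put back on chow for 15 days. The injured mice (DDC, n = 4) had eaten the same diet for 10 days with no recovery. Control mice (n = 4) had eaten chow throughout. All were wildtype C57BL/6 males of 14 to 16 weeks, an age given once for all groups, and the labels name no other allele or agent. Each library came from 1 mouse and held polyadenylated RNA of liver cells caught on magnetic beads over 2 columns in turn, with an antibody against EpCAM, an epithelial surface protein. The comparison uses 7 of the 11 libraries, and the Control libraries serve as the level of resting ducts and in the estimate of the spread. Of 43346 genes in the table, 15264 had an FPKM (reads per kilobase of gene, scaled to library depth) of at least 1 in at least 3 libraries and were tested. Library totals ran from 49339240 to 72929107 reads, and an FPKM of 1 rested on a median of 122.5 reads.

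Resting cholangiocytes rarely divide. When bile flow is blocked or the ducts are injured they re-enter the cell cycle, put out chemokines, growth factors and matrix proteins that reach neighbouring macrophages and fibroblasts, and form a so-called ductular reaction. NF-Y, the factor named in the title of the study, is a complex of the NF-YA, NF-YB and NF-YC proteins that binds the CCAAT box, a short element common in promoters of cell cycle genes.

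After 15 days of recovery 39 of 40 listed genes of G2 and mitosis and 43 of 44 of DNA replication were lower. Most listed matrix genes and 8 of 15 CC chemokines were also lower. Of the listed transcription factors of the biliary lineage, cilium genes and BMP response genes, 13 of 22, 18 of 34 and 13 of 20 were higher. In limma, on log2(FPKM + 1) with a 2-sided p adjusted over all genes tested and a threshold of 0.05, 9496 of 15264 genes changed, which is 62.2%. Of these, 5099 were higher in R15 (33.4%) and 4397 lower (28.8%). By at least 2 times, 540 genes were higher (3.54%) and 890 lower (5.83%). The R15 and DDC libraries did not overlap in 10166 genes (66.6%), with R15 above in 35.6% and below in 31%. These shares are the background against which each count of a gene group below is to be read. The median difference over all genes tested was 0.04 on the log2 scale. With each library rescaled to 1 total this median moved up by 0.10 and the split became 6172 higher and 3305 lower, so small differences depend on the scaling. Of the 5099 genes that were higher, R15 overlapped the Control range in 3914, stayed below every Control library in 378 and lay above every Control library in 807. Of the 4397 that were lower, R15 overlapped the Control range in 3409 and stayed above every Control library in 740.

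**Figure D1:**
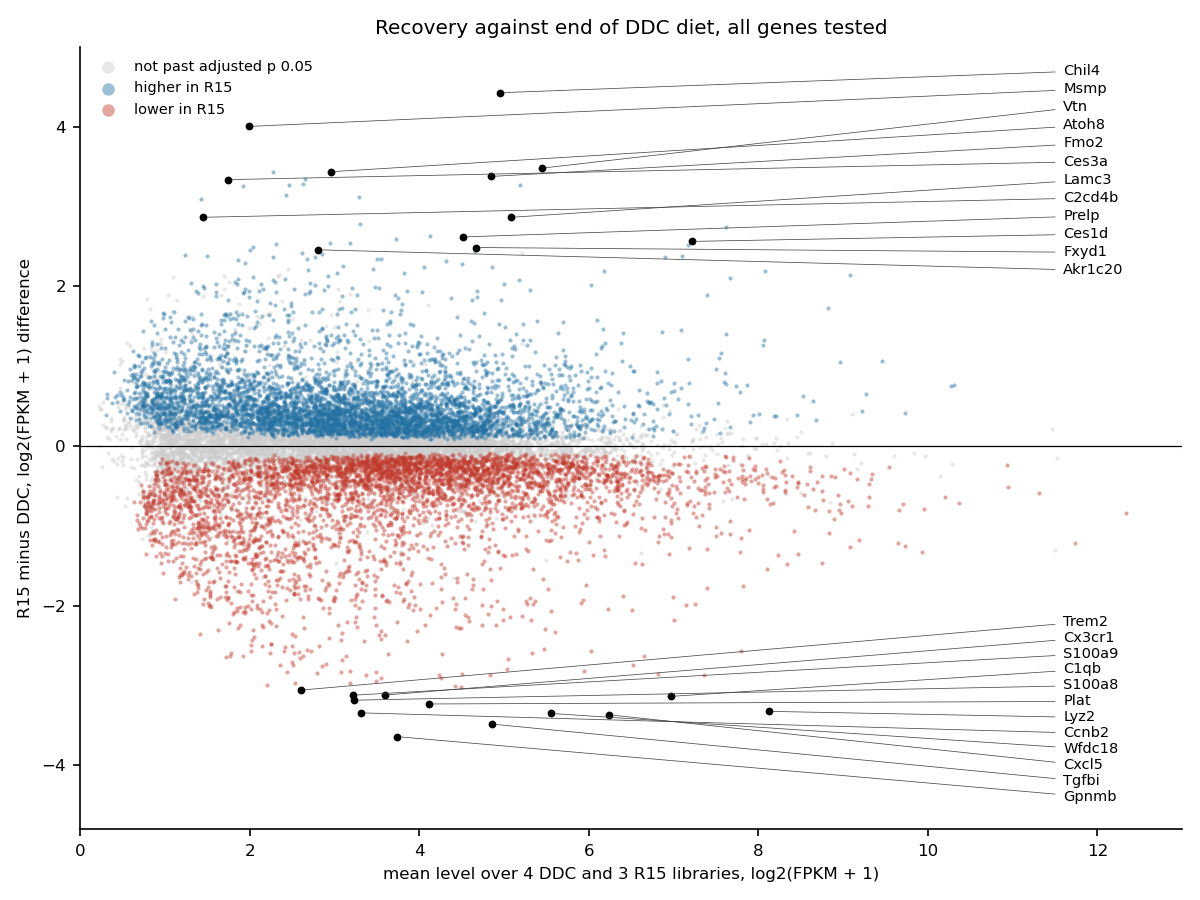
Difference between R15 and DDC on the log2(FPKM + 1) scale (vertical axis) against the mean level over the 4 DDC and 3 R15 libraries (horizontal axis), 1 point per gene for the 15264 genes tested. Blue points are the 5099 genes higher in R15, red points the 4397 lower and grey points those not past the threshold. The 12 largest rises and 12 largest falls that met the naming rule are black and labelled, from -3.64 for Gpnmb to 4.43 for Chil4.

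The R15 libraries were not alike. On the first principal component, which held 60.5% of the variance, the DDC libraries lay between 45.2 and 57.4 and the Control libraries between -40.3 and -36.7. R15 1 and R15 3 lay at -23.0 and -29.5, and R15 2 at -6.50, nearer to DDC. For 5064 of the 9496 changed genes (53.3%) R15 2 was the R15 library nearest to the DDC mean, against 1652 for R15 1 and 2780 for R15 3. Over all genes tested R15 2 was nearest in 47.1%. Without R15 2 the test called 9196 genes. DDC 1 and R15 3 also carried transcripts of pancreatic acinar cells, with 18 digestive enzyme genes summing to 1189 and 1595 FPKM where the other DDC and R15 libraries held 7.08 to 12.5 FPKM. Leaving out both left 7827 changed genes. Control 1, 2 and 3 carried the same acinar transcripts, with sums of 9758, 2611 and 1135 FPKM against 11.4 in Control 4, and Control 3 also held 11252 FPKM of gastric mucous cell genes, where every other library held 67.3 to 161. Leaving out Control 1, 2 or 3 gave 9628, 9618 and 9674 changed genes.

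The EpCAM-selected cells carried the markers of ducts in every library. Of 20 cholangiocyte markers 7 were higher and 6 lower in R15 (median -0.08), near the shares over all genes (33.4% and 28.8%). They summed to 12923 to 14593 FPKM in DDC, 12048, 11378 and 12602 in R15 1, 2 and 3 and 10955 to 13747 in Control. The osteopontin gene Spp1 alone made up most of each sum in the DDC and R15 libraries. Markers of other cells moved with the comparison. The 18 macrophage and Kupffer cell markers summed to 1501 to 2696 FPKM in DDC and to 158, 841 and 197 in R15 1, 2 and 3, so R15 2 lay between the groups while R15 1 and 3 lay near the Control libraries (157 to 187). The 15 endothelial markers went the other way, with 35.9 to 77.6 FPKM in DDC, 83.3, 277 and 218 in R15 and 127 to 525 in Control. In RNA of a bulk cell preparation, fewer cells of a type and less RNA per cell cannot be told apart. The part of these other cells in the differences given below was not tested.

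**Figure D2:**
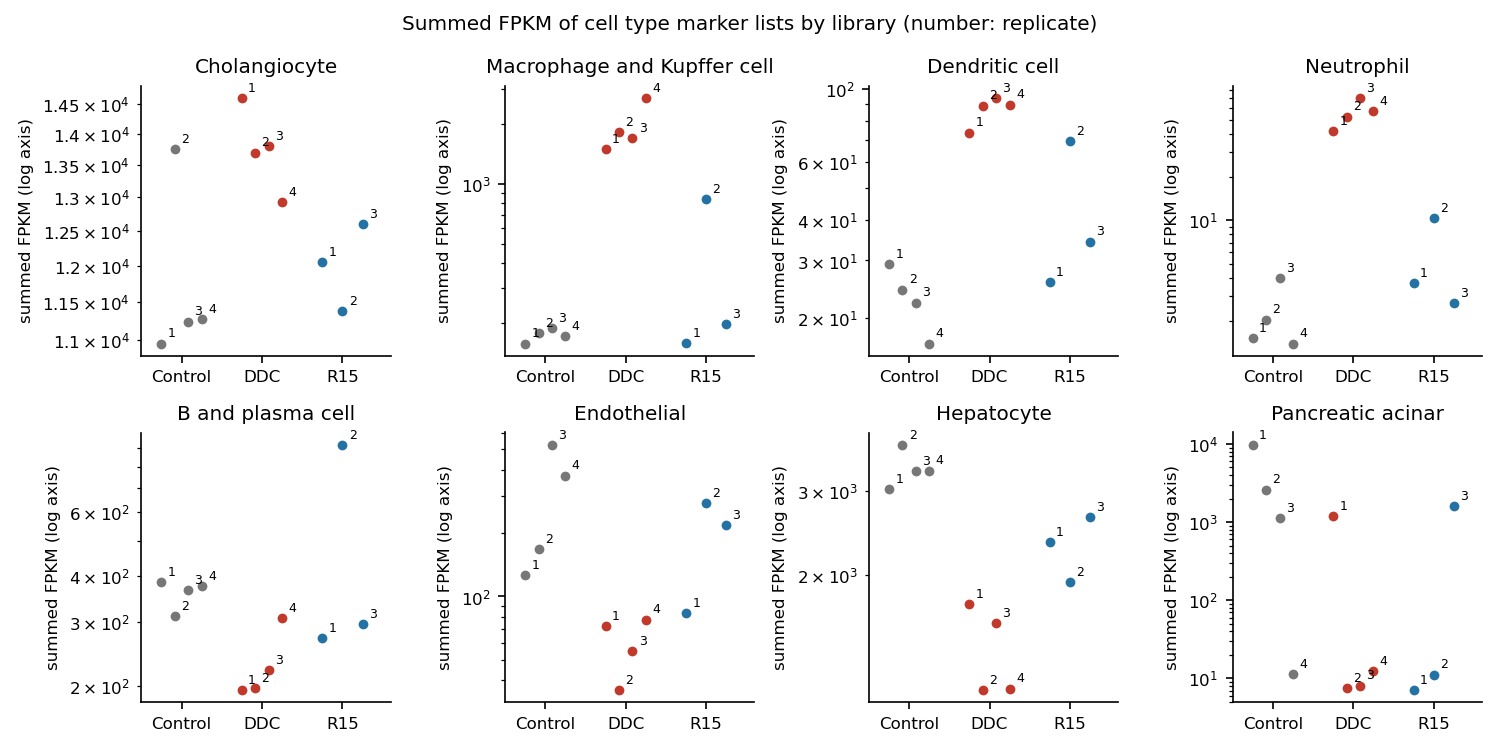
Summed FPKM of 8 lists of cell type markers (vertical axes, logarithmic) in the 4 Control (grey), 4 DDC (red) and 3 R15 (blue) libraries, with the replicate number beside each point. Macrophage markers stood at 841 FPKM in R15 2 and at 158 and 197 in the other R15 libraries, and pancreatic genes were high in Control 1, 2 and 3, DDC 1 and R15 3.

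Genes of G2 and mitosis showed a nearly uniform difference. Mki67, whose product Ki-67 is present in dividing cells, had 28.3, 27.9, 22.3 and 22.2 FPKM in the DDC libraries and 2.25, 4.06 and 1.97 in the R15 libraries. No library of one group reached the other, and R15 lay within the Control range of 1.63 to 4.25. The difference was -2.83 ± 0.25 (SE; limma adjusted p = 1.2e-05), with means 9.12 times apart. Ccnb2 encodes cyclin B2, a partner of the mitotic kinase CDK1, and had 31.2, 31.9, 22.7 and 19.6 FPKM in DDC and 1.64, 2.03 and 1.31 in R15, all R15 values again within the Control range of 1.16 to 4.81. Its difference of -3.34 ± 0.31 (SE; limma adjusted p = 1.5e-05) was the largest fall in the lists of mitosis, replication and E2F genes. Of 40 genes of G2 and mitosis, 39 were lower and 1 was higher, with a median of -2.01. The exception was Pttg1 (securin, at 0.22 ± 0.07 SE), named after its value was seen, which was no longer called without R15 3. Among the others, Anln, which encodes the contractile ring protein anillin, fell from 7.51–9.44 to 0.468–0.754 FPKM. Prc1, which bundles microtubules of the central spindle, fell from 7.0–8.88 to 0.632–0.958. Incenp and Tacc3, both of the mitotic spindle and chromosome machinery, fell (log2 differences of -1.65 and -1.89).

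Genes of DNA replication moved the same way but by less. All 44 listed genes passed the filter, 43 were lower and none was higher, with a median of -1.17. Rrm2, the regulated subunit of ribonucleotide reductase, stood at 12.2, 11.8, 12.8 and 13.8 FPKM in DDC and 1.13, 1.81 and 1.09 in R15 (-2.56 ± 0.12 SE, limma adjusted p = 6.4e-07). Every R15 library lay below every DDC library, and R15 1 and R15 3 also lay below the lowest Control value of 1.5. Cdc6, a loader of the replicative helicase, had 0.32 to 0.557 FPKM in R15 against 2.82 to 3.35 in DDC. Clspn, the checkpoint adaptor claspin, had 0.196 to 0.325 against 2.46 to 2.96. Chaf1b, a subunit of the chaperone that deposits histones at forks, had 1.72 to 1.85 against 6.74 to 7.71 (-1.56 ± 0.07 SE, limma adjusted p = 4.3e-07). The counts of lower genes in the replication and mitosis lists were unchanged by leaving out any R15 library or by the 3 other scalings.

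The promoters of these genes are shown because the study names a CCAAT-binding factor. They come from RefSeq on build GRCm38.p6 and run from 250 bases before to 50 bases after the annotated start, in the direction of the gene. Capitals mark CCAAT (or ATTGG, the same box on the other strand), TTTGAA and GCGGGAA in each promoter. The first is the core that NF-Y binds, the next a form of the cell cycle homology element of mitotic genes, and the last a core of sites of E2F factors. Ccnb2 lies at chr9:70421505-70421804, minus strand, Mki67 at chr7:135716330-135716629, minus strand, Prc1 at chr7:80294201-80294500, plus strand, Rrm2 at chr12:24708004-24708303, plus strand, and Chaf1b at chr16:93883651-93883950, plus strand.
Ccnb2: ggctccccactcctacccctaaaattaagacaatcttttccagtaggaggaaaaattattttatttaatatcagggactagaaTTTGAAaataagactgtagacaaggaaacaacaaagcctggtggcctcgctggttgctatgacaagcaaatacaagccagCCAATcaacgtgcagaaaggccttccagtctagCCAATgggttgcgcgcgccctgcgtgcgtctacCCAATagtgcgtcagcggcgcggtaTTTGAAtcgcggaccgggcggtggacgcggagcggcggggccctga
Mki67: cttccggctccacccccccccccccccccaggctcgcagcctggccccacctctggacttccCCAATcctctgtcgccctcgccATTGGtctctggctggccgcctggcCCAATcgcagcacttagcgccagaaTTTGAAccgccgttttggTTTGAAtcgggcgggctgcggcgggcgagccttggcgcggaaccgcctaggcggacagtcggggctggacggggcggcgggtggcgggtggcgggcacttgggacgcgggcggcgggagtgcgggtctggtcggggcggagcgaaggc
Prc1: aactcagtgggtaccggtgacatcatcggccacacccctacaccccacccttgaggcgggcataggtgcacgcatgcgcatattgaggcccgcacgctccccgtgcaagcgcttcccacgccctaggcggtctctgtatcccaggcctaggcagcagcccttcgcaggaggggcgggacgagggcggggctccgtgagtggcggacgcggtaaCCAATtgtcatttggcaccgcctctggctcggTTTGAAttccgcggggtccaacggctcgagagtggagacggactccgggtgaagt
Rrm2: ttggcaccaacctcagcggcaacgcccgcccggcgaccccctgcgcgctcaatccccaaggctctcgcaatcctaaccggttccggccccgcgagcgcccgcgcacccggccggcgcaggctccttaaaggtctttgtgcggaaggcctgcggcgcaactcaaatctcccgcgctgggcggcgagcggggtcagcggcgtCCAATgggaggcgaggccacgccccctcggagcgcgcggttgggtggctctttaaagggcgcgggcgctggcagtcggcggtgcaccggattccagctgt
Chaf1b: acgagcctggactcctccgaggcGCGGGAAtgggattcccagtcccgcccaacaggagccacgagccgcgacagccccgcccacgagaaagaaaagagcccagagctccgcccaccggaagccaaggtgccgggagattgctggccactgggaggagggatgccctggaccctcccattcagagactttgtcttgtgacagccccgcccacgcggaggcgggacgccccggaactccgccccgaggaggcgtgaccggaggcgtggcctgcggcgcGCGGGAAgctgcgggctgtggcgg
In Ccnb2 the CCAAT boxes begin 87, 54 and 21 bases before the start, with a TTTGAA beginning 5 bases after it. Prc1 has 1 CCAAT at 37 bases and 1 TTTGAA at 5 bases before the start. Rrm2 has 1 CCAAT and neither of the other elements, and Chaf1b has 2 GCGGGAA and no CCAAT.

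Each element was counted on both strands and on its own, without regard to overlap with the others. RefSeq promoters were found for 34 of the 40 mitosis genes (36 promoters) and 33 of the 44 replication genes (37 promoters). CCAAT was in 27 of the 36 mitosis promoters (75%) and in 21 of the 37 replication promoters (56.8%), where all 32851 promoters of the table held it in 37.4% and those of tested genes in 37.3%. TTTGAA was in 26 of the 36 mitosis promoters (72.2%) and 10.8% of replication promoters, beside 17.9% of all promoters and 12.1% of those of tested genes. GCGGGAA was in 17 of the 37 replication promoters (45.9%) and in 0 of the 36 mitosis promoters, beside 4.60% of all and 7.97% of those of tested genes. Over the whole comparison the shares were closer to the background. CCAAT was in 39.7% of promoters of genes lower by at least 2 times and in 35.5% of those higher by at least 2 times. TTTGAA was in 20.8% and 9.11% of the same sets. A match of letters is a description of the promoter, not evidence of binding.

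The genes of NF-Y itself differed little. Nfya, the regulatory subunit that reads the CCAAT box, stood at 11.2, 13.2, 11.9 and 12.4 FPKM in DDC and 13.4, 15.5 and 12.7 in R15 (0.17 ± 0.08 SE, limma adjusted p = 0.1). Nfyb stood at 6.48 to 6.6 FPKM in R15 against 6.88 to 7.2 in DDC (-0.09 ± 0.05 SE, limma adjusted p = 0.17), and Nfyc at 13.9 to 16.1 against 13.2 to 14.2 (0.12 ± 0.05 SE, limma adjusted p = 0.051). No subunit passed the threshold, and only Nfyb had groups that did not overlap. Nfya passed, higher in R15, in a fit with the replicate number as a block (log2 difference 0.18) and with libraries rescaled to 1 total (0.28). Nfyc passed, higher in R15, under 6 alternatives, among them the rescaling (0.23) and the fit without R15 2 (0.17).

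Regulators of the cycle moved in both directions. Of 15 tested genes of E2F factors, their partners and the retinoblastoma family (16 listed), 9 were lower and 3 higher. E2f1, the activator of S phase genes, fell from 6.23–7.25 to 0.662–1.43 FPKM, and Mybl2, the factor of the mitotic gene programme, from 2.49–2.92 to 0.464–0.774. Rbl1, which encodes the p107 pocket protein, and Tfdp1, the E2F partner, fell (log2 differences of -0.99 and -0.70). Cdkn1a, the p53 target that encodes the CDK inhibitor p21, stood at 32.9, 38.8, 41.5 and 35.9 FPKM in DDC and 10.5, 15.5 and 9.31 in R15 (-1.61 ± 0.25 SE, limma adjusted p = 0.00036), with no overlap. Cdkn2a, which encodes p16 and ARF, was under the filter, with 0.606 to 0.916 FPKM in DDC and 0.0861 to 0.387 in R15. Ccnd2, the G1 cyclin D2, rose from 17–21.1 to 38.4–39.9 FPKM (1.02 ± 0.11 SE, limma adjusted p = 3.7e-05), still below every Control library (52.2 to 72.3). Of 12 tested D cyclins, their kinases and CDK inhibitors, 4 were higher and 4 lower, with Cdk4 and Cdk2 among the latter. These counts are near the shares over all genes, 33.4% higher and 28.8% lower.

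Other p53 targets were mostly lower, 13 of 21 against 3 higher (median -0.48). Bax, the pore-forming killer protein, fell from 84.5–93.9 to 42.6–50.9 FPKM, while the p53-inducible ribonucleotide reductase gene Rrm2b rose from 3.44–3.7 to 5.05–5.58. Of 24 genes of homologous recombination and the Fanconi pathway, 18 were lower and none was higher, with Eme1 at -1.38 and Brca1 at -1.21. Most of these are low genes, and with a filter at FPKM 5 only 4 were tested and 1 was lower. Among chromatin genes, Uhrf1, which brings the maintenance DNA methylase to replicated DNA, stood at 26.4, 24.2, 28.3 and 28 FPKM in DDC and 2.53, 3.58 and 2.11 in R15 (-2.91 ± 0.17 SE, limma adjusted p = 1.6e-06). The maintenance methylase gene Dnmt1 (-0.81) and the remodeller gene Hells (-2.09) were lower too. Of 15 genes of the Polycomb complex PRC2 and of DNA methylation 7 were lower and 3 higher. Ezh1, the catalytic subunit of PRC2 typical of resting cells, was higher (0.66 ± 0.06 SE, limma adjusted p = 1e-05). H2afz and Hmgb2, a histone variant and a chromatin protein, fell (log2 differences of -1.36 and -1.67), and 11 of 13 genes of that list were lower and 1 higher. The higher call was lost without R15 1 or R15 3 and in several other alternatives.

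**Figure D3:**
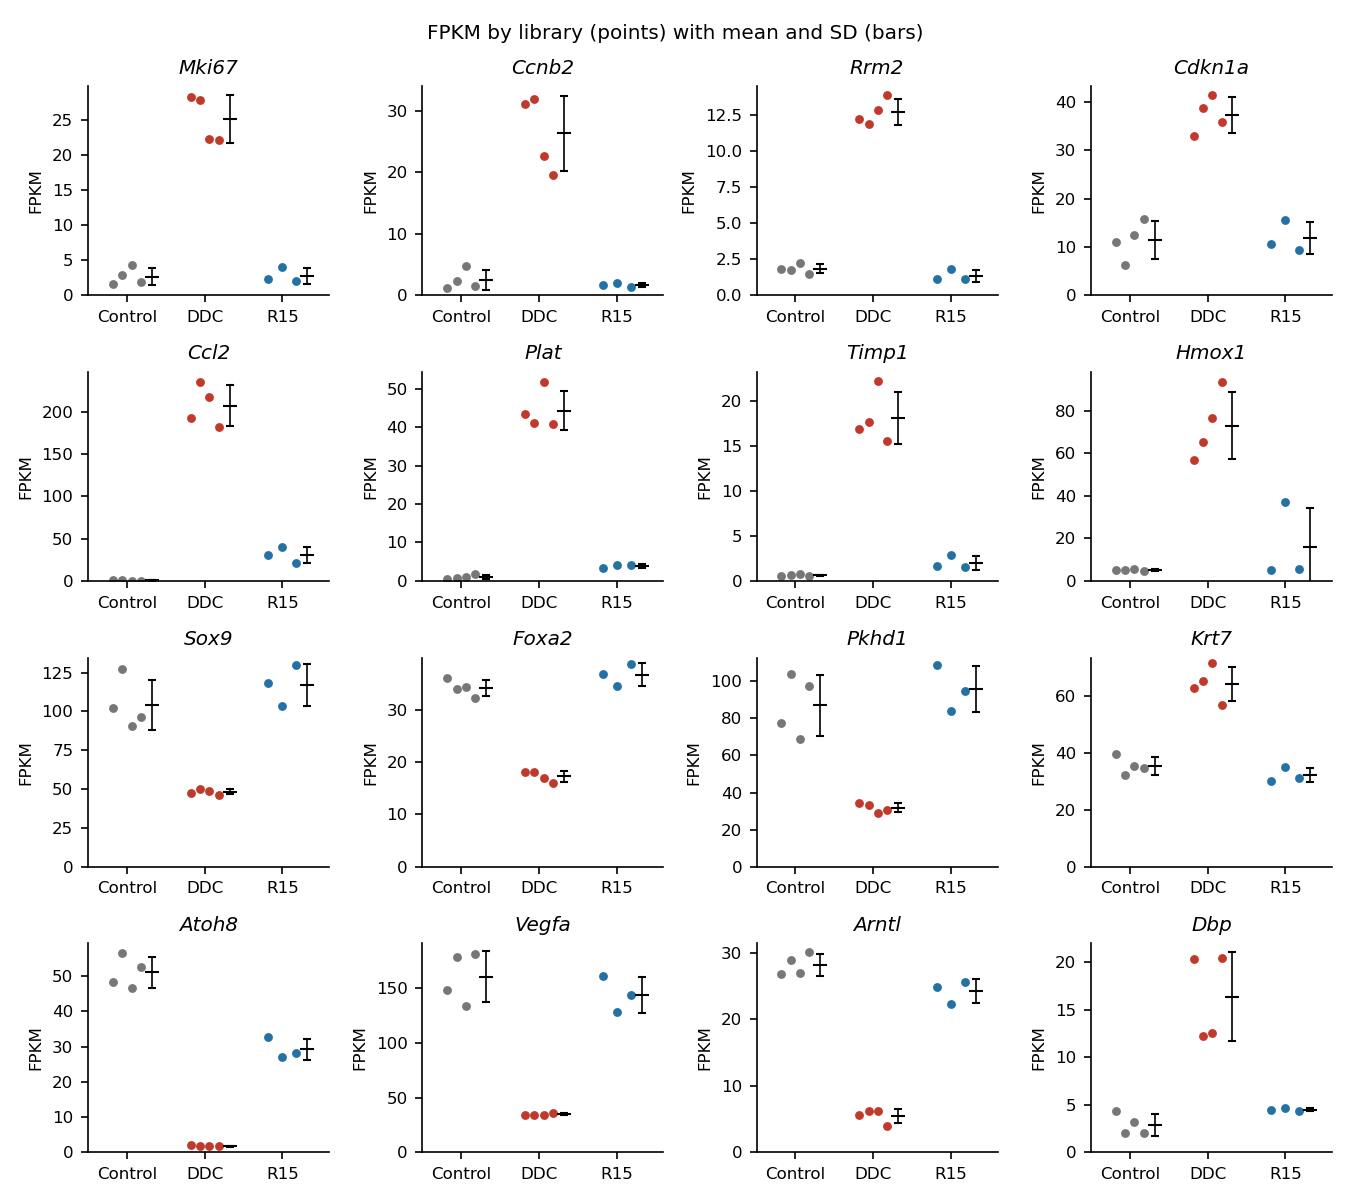
FPKM (vertical axes, from 0) of 16 genes in the Control (grey), DDC (red) and R15 (blue) libraries, with the mean and SD of each group as a black bar beside the points. Ccnb2 lay at 1.31 to 2.03 FPKM in R15 against 19.6 to 31.9 in DDC, and Sox9 at 103 to 130.1 against 46.4 to 50.3. Hmox1 was at 37.1 FPKM in R15 2 and at 5.17 and 5.41 in the other R15 libraries.

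Chemokine genes that changed were mostly lower. Ccl2, the chemokine that draws monocytes, stood at 193, 235, 218 and 182 FPKM in the DDC libraries and 31, 40.5 and 21.3 in the R15 libraries (-2.74 ± 0.19 SE, limma adjusted p = 3.6e-06). All R15 libraries lay far below DDC and far above the Control range of 0.304 to 0.745. Of 15 CC chemokine genes, 8 were lower and none was higher, with a median of -1.33. Ccl7 and Ccl9, also ligands for receptors of myeloid cells, fell from 4.52–5.04 to 0.849–2.07 and from 13.3–19.4 to 2.73–6.46 FPKM. Of 12 tested CXC chemokines and fractalkine, 6 were lower and 2 higher. Cxcl5, a neutrophil attractant, fell from 169–265 to 11.5–24.2 FPKM (-3.37 ± 0.71 SE, limma adjusted p = 0.0022), with a Control range of 6.71 to 84.7 that is wide and overlaps R15. The neutrophil attractants Cxcl1 and Cxcl3 fell (log2 differences of -2.18 and -2.48). The macrophage marker sums given above fell in the same libraries.

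Growth factor genes went both ways. Of 33 tested growth factors and cytokines (39 listed), 12 were higher and 10 lower, near the shares over all genes (33.4% and 28.8%). Vegfa, the main signal for endothelial growth, stood at 34.2, 34.6, 34.4 and 36.2 FPKM in DDC and 161, 128 and 144 in R15 (2.01 ± 0.11 SE, limma adjusted p = 1.3e-06), which overlaps the Control range of 134 to 181. Pdgfc, a platelet-derived growth factor, rose from 18.5–20.8 to 47.2–63.3 FPKM. Bmp4, a ligand of BMP receptors, stood at 1.17, 1.31, 1.78 and 1.6 FPKM in DDC and 3.71, 5.5 and 6.53 in R15 (1.32 ± 0.14 SE, limma adjusted p = 4e-05), above every Control library (1.59 to 1.76). Lif, a cytokine of the IL-6 family, fell from 7.6–9.32 to 2.84–3.37 FPKM, to near the Control range of 1.9 to 2.88. Among 31 receptors for growth and death signals, 14 were higher and 9 lower. Tnfrsf12a, the receptor of TWEAK, a signal for duct cell growth, fell from 170.1–193 to 65.2–75.4 FPKM (-1.36 ± 0.09 SE, limma adjusted p = 3.5e-06). The fibroblast growth factor receptor gene Fgfr2 rose from 32.8–36.4 to 69.3–83.4, and the insulin receptor gene Insr by 0.85 on the log2 scale.

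Of 35 tested genes of matrix and proteases 23 were lower and 4 higher, with a median of -0.38. Plat, which encodes tissue plasminogen activator, stood at 43.4, 41.2, 51.8 and 40.8 FPKM in DDC and 3.24, 4.13 and 4.08 in R15 (-3.23 ± 0.17 SE, limma adjusted p = 1.1e-06). R15 stayed above every Control library (0.578 to 1.69). Timp1, the inhibitor of matrix metalloproteases, had 16.9, 17.7, 22.1 and 15.5 FPKM in DDC and 1.62, 2.89 and 1.51 in R15 (-2.68 ± 0.16 SE, limma adjusted p = 1.6e-06), likewise above the Control range of 0.536 to 0.731. Plaur, the urokinase receptor, fell by 2.07 on the log2 scale, and Lamb3, the beta chain of laminin 332, fell by 1.24 on the log2 scale. Tgfbi, a secreted matrix protein that macrophages also make, fell from 73.7 to 96.7 FPKM to 3.25, 15.5 and 4.48 in R15 1, 2 and 3, with R15 2 well above the other R15 libraries. Of 11 tested integrins, 7 were lower, a count that fell to 4 with libraries rescaled to 1 total. Itga2, a collagen receptor subunit, fell from 29.4–34.6 to 6.68–8.33 FPKM (-2.02 ± 0.12 SE, limma adjusted p = 2e-06), against 1.14 to 2.15 in Control. Itgb6, part of the integrin that activates TGF beta, and Itgav, its partner chain, fell (log2 differences of -0.99 and -0.81) and both stayed above every Control library.

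Transcription factors of the biliary lineage were mostly higher. Sox9, the transcription factor that marks bile duct cells from their formation on, stood at 47.3, 50.3, 48.8 and 46.4 FPKM in DDC and 118, 103 and 130.1 in R15 (1.26 ± 0.11 SE, limma adjusted p = 1.1e-05), with R15 reaching the upper part of the Control range of 90.7 to 127 and beyond it. Foxa2, a pioneer factor of liver and duct development, rose from 15.9–18.1 to 34.5–38.7 FPKM (1.05 ± 0.06 SE, limma adjusted p = 1.3e-06). Onecut1 (HNF6) and Gata6, also factors of liver and duct development, rose by 1.21 and 0.77, and Sox4 by 0.94. Of 22 tested factors of the biliary lineage (24 listed), 13 were higher and 2 lower. The lower ones, Klf5 (-0.69 ± 0.28 SE) and Klf6 (-0.40 ± 0.13 SE), were named after their values were seen, and neither was called with libraries rescaled to 1 total, without R15 1 or without R15 3.

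Keratins and surface markers were lower more often than higher. Krt7 stood at 63.1, 65.5, 71.6 and 57.1 FPKM in DDC and 30.2, 35 and 31.4 in R15 (-0.97 ± 0.09 SE, limma adjusted p = 1.3e-05). Of 8 tested keratins (12 listed) 5 were lower and 1 higher. Krt8 and Krt18, the simple epithelial keratin pair, fell (log2 differences of -0.79 and -0.73). Krt19, the usual duct keratin, had 412, 419, 481 and 414 FPKM in DDC and 237, 345 and 285 in R15 (-0.59 ± 0.24 SE, limma adjusted p = 0.057). Its groups did not overlap, yet it missed the threshold, which it passed without Control 1, Control 2 or R15 2 and with only the DDC and R15 libraries in the fit (adjusted p 0.0056 to 0.044 in limma, at -0.72 to -0.59). Spp1, the gene of osteopontin, did not pass, at 7349.9 to 8418 FPKM in R15 and 8196 to 9153 in DDC (-0.11 ± 0.22 SE, limma adjusted p = 0.69). Among 21 tested surface and progenitor markers, 13 were lower and 4 higher. Tspan8, a tetraspanin, and S100a11, a calcium-binding protein, fell (log2 differences of -0.81 and -1.18). Epcam itself, the protein used to catch the cells, fell from 359.9–431 to 287–305 FPKM (-0.46 ± 0.08 SE, limma adjusted p = 0.00079), within the Control range of 259 to 315. With quantile normalization its difference was -0.23 and no longer passed.

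Genes of the primary cilium, the antenna on the duct cell surface that senses bile flow, were more often higher. Of 34 genes of the cilium and of polycystic liver disease, 18 were higher and 2 lower, with a median of 0.19. Pkhd1, which encodes the ciliary protein fibrocystin, stood at 34.4, 33.4, 28.7 and 30.8 FPKM in DDC and 109, 84 and 94.7 in R15. The groups did not overlap and the difference was 1.56 on the log2 scale. Ift172, part of the intraflagellar transport train, rose from 8.04–9.02 to 16.8–18.2 FPKM (0.94 ± 0.06 SE, limma adjusted p = 3.4e-06), and Bbs2, a subunit of the BBSome, by 0.80. Alg8, an enzyme of protein glycosylation in the endoplasmic reticulum, went the other way and fell from 8.44–9.37 to 4.55–5.02 FPKM.

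Bile transport genes split evenly, 7 higher and 7 lower among 25 tested (30 listed), near the shares over all genes (33.4% and 28.8%). Abcb1a, an export pump for drugs and other lipophilic compounds, stood at 14.1, 12.4, 12.9 and 13.6 FPKM in DDC and 28.5, 31.6 and 28.3 in R15 (1.1 ± 0.06 SE, limma adjusted p = 1.3e-06), still below every Control library (37.6 to 43.5). Slc4a2, the chloride and bicarbonate exchanger of ducts, rose from 21.7–22.4 to 25.5–26.4 FPKM, and Ggt1, an enzyme of glutathione breakdown at the duct surface, by 0.48. Abcc4, another export pump, and Kcnn4, a potassium channel, fell (log2 differences of -0.80 and -1.0) to levels that overlap the Control range. The chloride channel gene Cftr (-0.60 ± 0.30 SE), the bile acid importer gene Slc10a2 (-0.02 ± 0.20 SE) and the water channel gene Aqp1 (1.28 ± 0.57 SE) did not pass. Cftr did pass, lower in R15, when only the DDC and R15 libraries entered the fit and without Control 3, and Aqp1 passed, higher in R15, without DDC 4 or without R15 1. Aqp1 stood at 32.8, 82.6 and 81.4 FPKM in R15 1, 2 and 3, in the order of the endothelial marker sums, where R15 1 was also lowest. Among 20 genes of tight junctions, 7 were higher and 7 lower, also near the shares over all genes. Cldn4 had 256, 257, 269 and 199 FPKM in DDC and 46, 55 and 59.5 in R15 (-2.17 ± 0.15 SE, limma adjusted p = 2.9e-06), and Cldn1 also fell (-0.99). Cldn8 rose from 20.0–21.9 to 39.5–42 FPKM and Cldn12 by 0.52. Claudins set what passes between neighbouring cells.

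Genes that respond to BMP were higher more often than lower. Atoh8, a transcription factor gene and a target of BMP and SMAD signalling, stood at 1.97, 1.7, 1.82 and 1.68 FPKM in the DDC libraries and 32.6, 27 and 28.3 in the R15 libraries (3.44 ± 0.08 SE, limma adjusted p = 1.7e-08). The means differed 16.4 times, and R15 remained below every Control library (46.6 to 56.6). It is listed at chromosome 6, 72206177 to 72235577 (mm10). Id3, an inhibitor of basic helix-loop-helix factors and a direct BMP target, rose from 20.0–24.6 to 51.1–63.6 FPKM (1.33 ± 0.13 SE, limma adjusted p = 2.2e-05), and the feedback inhibitor gene Smad6 by 1.17. Of 20 tested genes of this group (25 listed), 13 were higher and 5 lower, with a median of 0.42. Tgif1, a repressor of TGF beta targets, was among the lower ones (-0.57).

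Genes of the Notch and Wnt pathways were mostly higher. In the Notch pathway, which drives duct formation, 13 of 21 tested genes were higher and 4 lower. Dtx1, a regulator of the Notch receptor, rose from 3.79–4.62 to 12.3–12.8 FPKM (1.4 ± 0.10 SE, limma adjusted p = 4.2e-06). The receptor genes Notch1 and Notch2 rose by 0.70 and 0.73. In the Wnt pathway 16 of 26 tested genes (37 listed) were higher and 5 lower. Wnt4, a ligand, rose from 12.6–15.5 to 23.2–26.3 FPKM, and the co-receptor gene Lrp6 by 0.74. The ligand gene Wnt7a and the nuclear factor gene Tcf7 fell (log2 differences of -1.05 and -0.95). Sfrp5, a secreted Wnt inhibitor, stood at 0.101, 0, 0.0213 and 0.0374 FPKM in DDC and 1.0, 0.231 and 0.578 in R15, against 15.8 to 20.8 in Control. It passed (0.60 ± 0.15 SE, limma adjusted p = 0.0052), but with a pseudocount of 5 the difference was 0.15 and no longer did.

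Among 30 genes of YAP and TEAD, the pathway that reads cell contact and tension, 16 were higher and 8 lower, or 5 lower with libraries rescaled to 1 total. Yap1 rose from 10.6–12 to 14.8–15 FPKM (0.35 ± 0.06 SE, limma adjusted p = 0.00045). Amotl2, both target and brake of YAP, rose by 1.21 and Crim1 by 0.82. Of 20 feedback and target genes of NF-kB 16 were lower and 1 higher (median -0.68). The higher call was lost without R15 1 or R15 3 and in several other alternatives. Vcam1, an adhesion protein for leukocytes, stood at 301, 275, 308 and 253 FPKM in DDC and 69, 109 and 73.6 in R15 (-1.77 ± 0.17 SE, limma adjusted p = 1.7e-05), above the Control range of 24 to 36.2. Relb, a subunit of the alternative NF-kB complex, and Birc3, an inhibitor of apoptosis, fell (log2 differences of -0.79 and -0.67). Lcn2, the iron-binding protein lipocalin, fell from 440.3–548 to 74.1–86.6 FPKM. Immediate early genes, which respond to stimuli within minutes and also to handling of cells, showed 8 lower and 1 higher among 21. Nr4a1 had 67.2, 63, 74.9 and 70.6 FPKM in DDC and 18.4, 27.7 and 10.6 in R15 (-1.91 ± 0.27 SE, limma adjusted p = 0.00021), and Egr2, Egr3 and Fosl1 fell (log2 differences of -1.09, -1.21 and -1.27). Jun was the higher gene, with 178 to 195 FPKM in DDC and 261 to 369 in R15, and was named after its value was seen.

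Clock genes changed in opposite sets. Arntl, which encodes the activator BMAL1, stood at 5.62, 6.21, 6.17 and 3.92 FPKM in DDC and 25, 22.3 and 25.6 in R15 (1.98 ± 0.12 SE, limma adjusted p = 2e-06). Npas2, a partner of BMAL1, rose from 1.33–2.51 to 9.59–13 FPKM, and the repressor gene Cry1 by 1.23. Bhlhe41, a repressor of BMAL1 targets, fell from 2.69–3.23 to 0.212–0.48 FPKM. Dbp and Per1, targets of the BMAL1 complex named after their values were seen, fell from 12.2–20.5 to 4.32–4.62 FPKM (-1.63 ± 0.24 SE, limma adjusted p = 0.00025) and from 18.3–26.5 to 6.98–9.99. Of 18 tested clock genes, 7 were higher and 8 lower. Control levels were 26.8 to 30.1 FPKM for Arntl and 2.0 to 4.39 for Dbp, so R15 lay near Control for both. The mice lived on a 12-hour light and dark cycle, and the sources used here do not give the hour at which each mouse was taken, so the hour and the group cannot be told apart.

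DDC blocks the last step of heme synthesis, and genes of heme handling and oxidative stress were lower after its withdrawal more often than higher, apart from heme synthesis itself. Of 11 heme synthesis genes, 3 were higher and 2 lower. Cpox and Uros, enzymes of the pathway, rose from 9.5–10.7 to 15.5–16.4 and from 3.63–4.11 to 5.83–6.58 FPKM. Tspo, the mitochondrial translocator protein, fell from 196–203 to 100.5–112 FPKM. Of 20 tested genes of heme breakdown and iron (22 listed), 12 were lower and 1 higher. The higher call was lost without R15 1, R15 3, DDC 1, DDC 2 or DDC 3. It was also lost under another scaling and with only the DDC and R15 libraries in the fit. Steap4, a metal reductase, fell from 12–16.7 to 4.64–5.0 FPKM (-1.35 ± 0.16 SE, limma adjusted p = 7.4e-05) and stayed above the Control range of 0.822 to 2.0. Tfrc, the transferrin receptor, fell by 1.24. Hmox1, the inducible heme oxygenase, which macrophages express strongly, was named after its values were seen. It stood at 57, 65.3, 76.5 and 93.6 FPKM in DDC and 5.17, 37.1 and 5.41 in R15 (-2.67 ± 0.53 SE, limma adjusted p = 0.0015), with R15 2 high as for macrophage markers and the other R15 libraries at the Control level of 4.61 to 5.77. Of 28 tested genes of NRF2 and glutathione 16 were lower and 3 higher. Gsr (glutathione reductase) and G6pdx and Taldo1, both of the pentose phosphate pathway, fell (log2 differences of -0.65, -0.61 and -0.90). Ephx1, an epoxide hydrolase, rose from 79.7–86.1 to 128–137 FPKM. Of 30 tested genes of the unfolded protein and integrated stress responses, 12 were lower and 7 higher. The serine synthesis genes Phgdh and Psat1 fell from 14.2–17.3 to 4.99–5.83 and from 5.11–6.09 to 1.11–1.66 FPKM, while the chaperone gene Dnajc3 rose by 0.46.

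Cholesterol synthesis genes split the R15 libraries. Hmgcs1, which encodes HMG-CoA synthase at the start of the pathway, stood at 89.2, 78.3, 70.0 and 70.8 FPKM in DDC and at 116, 33 and 179 in R15 1, 2 and 3. Sqle, squalene epoxidase, had 28.5, 25.2, 23.8 and 24 FPKM in DDC and 41, 13.4 and 57.7 in R15. In both, R15 1 and R15 3 lay above all DDC libraries and R15 2 below all of them. These genes, like Idi1, Insig1 and Msmo1 in the plot of this list, were named after their values were seen. R15 2 was the lowest R15 library in 24 of the 24 listed genes and lay below every DDC library in 24. Over all genes tested it was the lowest R15 library in 37.2%. R15 1 and R15 3 both lay above every DDC library in 17 of the 24. Shares over all genes were not counted for this pattern or for R15 2 lying below every DDC library. In the test of all libraries only Tm7sf2, a sterol reductase, was higher (0.48 ± 0.17 SE, limma adjusted p = 0.029) and 1 gene was lower. Without R15 2, 16 of the 24 were higher and none was lower. Without R15 3 none was higher and 4 were lower, and without R15 1 none was higher. The call of Tm7sf2 was also lost without DDC 1, DDC 2 or DDC 3, and 2 genes were lower without Control 3. The Control libraries had mean log2 levels over the list of 4.84 to 5.14, DDC 4.48 to 4.66, and R15 4.84, 3.68 and 5.22. Macrophage markers were also high in R15 2, and their part in the sterol values was not tested. In fatty acid metabolism 9 of 23 genes were higher and 4 lower, or 2 lower without R15 1. The desaturase gene Fads2 rose from 124–143 to 252–319 FPKM, Acss2, which makes acetyl-CoA from acetate, by 0.96, and Acadm, an enzyme of beta oxidation, by 0.65.

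**Figure D4:**
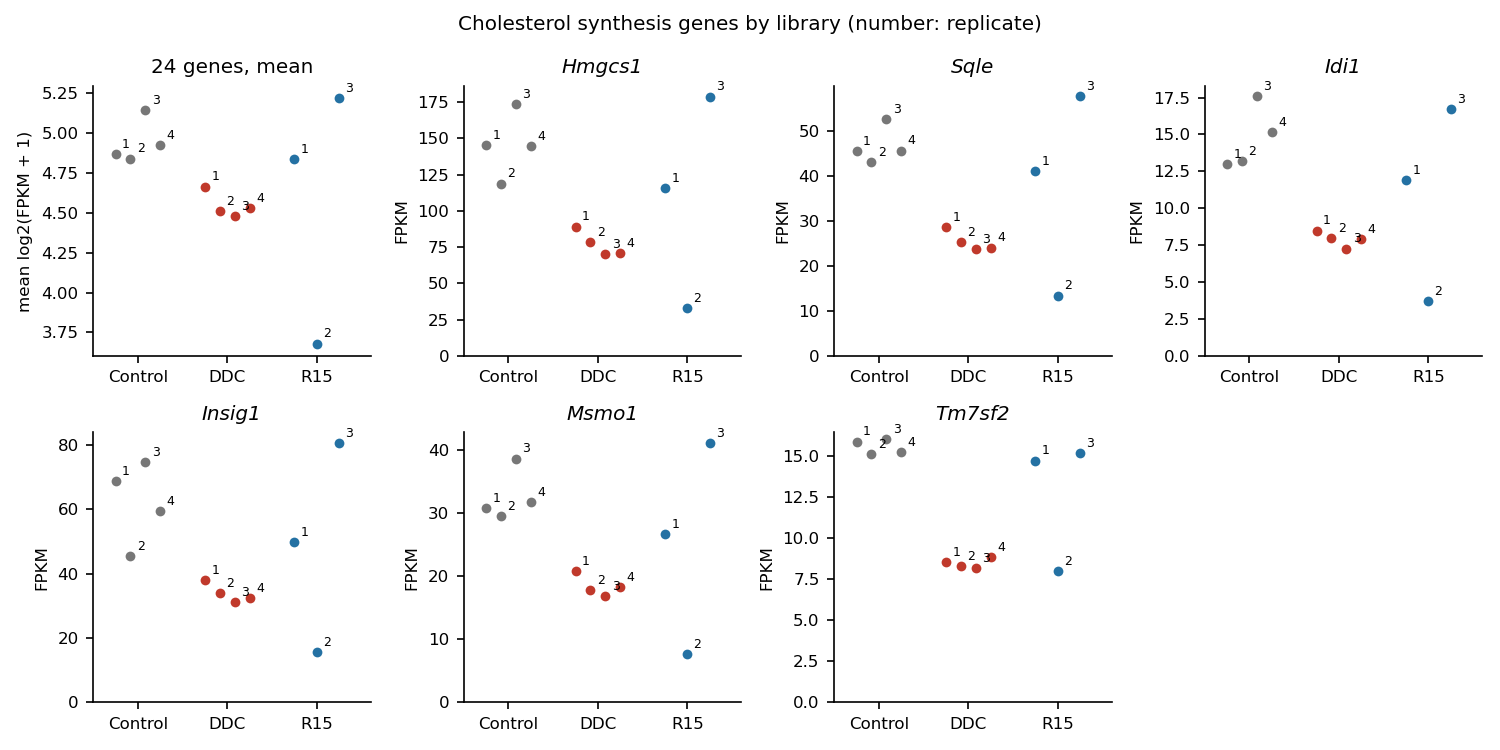
Mean log2(FPKM + 1) of 24 cholesterol genes (first panel) and FPKM of 6 of them (other panels, from 0) in the Control (grey), DDC (red) and R15 (blue) libraries, with replicate numbers. R15 2 was the lowest of the 11 libraries in every panel, and Hmgcs1 ran from 33.0 FPKM in R15 2 to 179 in R15 3.

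Genes of cell growth were lower by small amounts. Of 79 tested genes of cytosolic ribosomal proteins (82 listed), 73 were lower and none was higher, with a median of -0.43. Rpl12 stood at 99, 98.5, 105 and 105 FPKM in DDC and 54.9, 67.4 and 59.1 in R15 (-0.75 ± 0.08 SE, limma adjusted p = 4.6e-05), within or near the Control range of 53.7 to 67. The count ran from 58 to 74 over the 3 other scalings, so its direction did not depend on them. Many ribosomal protein genes have near-identical pseudogenes that can take reads, so single values are uncertain. Of 33 ribosome biogenesis genes 25 were lower and 2 higher, with Ncl (nucleolin) at -0.41 and Nop56 at -0.53. Of 37 tested proteasome subunits 32 were lower and none higher, with Psmd14, a deubiquitinase of the lid, falling from 29.2–30.2 to 16.9–18.2 FPKM. Of 76 subunits of the respiratory chain 38 were lower and 3 higher, and the lower count was 25 with libraries rescaled to 1 total or without R15 1. Here R15 lay below every Control library in 54 of the 76. That held for 2 of the 79 ribosomal protein genes and 1 of the 37 proteasome subunits. The share over all genes was not counted. Mean log2 levels over the list were 5.49 to 5.59 in R15, 5.70 to 5.73 in DDC and 5.64 to 5.97 in Control, so DDC lay within the Control range. Ndufa1, of complex I, fell from 70.5–75.4 to 45.6–48.1 FPKM, below every Control library (53.8 to 70.7). Among 30 genes of glycolysis and hypoxia 12 were lower and 9 higher. The glycolytic enzyme gene Gapdh fell from 146–164 to 75.2–88.8 FPKM (-0.88 ± 0.09 SE, limma adjusted p = 2.1e-05), whereas Ndrg1 and Epas1, an oxygen-responsive gene and the HIF-2 alpha gene, rose by 1.38 and 0.82. Lysosomal genes, many of which macrophages express strongly, held 24 lower and 1 higher members among 33 tested. Gusb and Ctsh, a glycosidase and a protease, fell (log2 differences of -1.25 and -0.88), while the acid glucosidase gene Gaa rose from 22.5–24.2 to 39–43.5 FPKM.

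**Figure D5:**
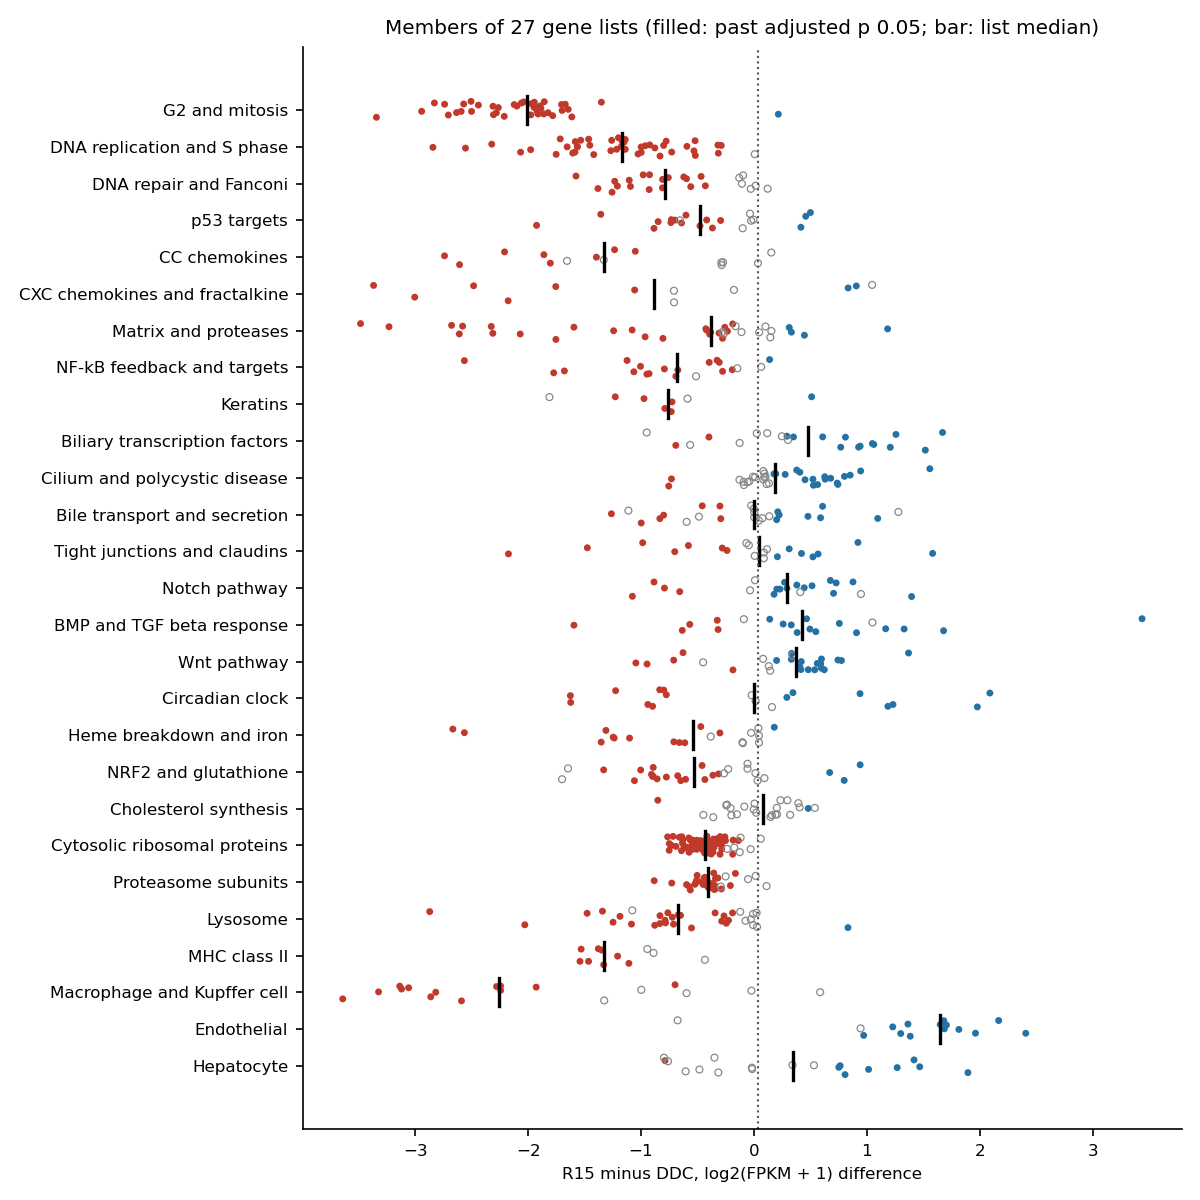
Difference between R15 and DDC on the log2(FPKM + 1) scale (horizontal axis) for each tested member of 27 gene lists (rows). Filled points passed the threshold (blue higher, red lower in R15), open points did not, black bars are list medians and the dotted line is the median of all genes tested, 0.04. G2 and mitosis (-2.01) and macrophage markers (-2.26) had the lowest medians shown, and endothelial markers (1.65) the highest.

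Markers of myeloid cells were mostly lower, though not evenly over the R15 libraries. Lyz2, the lysozyme of macrophages, stood at 601, 759.6, 667 and 1022 FPKM in DDC and 36.3, 215 and 50.6 in R15 1, 2 and 3 (-3.32 ± 0.49 SE, limma adjusted p = 0.00025). C1qb, a chain of complement C1q made by macrophages, stood at 249, 299, 285 and 473 and 15.6, 120.5 and 22.4, and Gpnmb and Trem2, of lipid-laden macrophages, had 0.801, 9.4 and 0.685 and 0.219, 2.55 and 0.372 FPKM in R15 against 27.2 to 60.9 and 11.4 to 21.1 in DDC. In all 4 genes R15 2 was several times above the other R15 libraries and below DDC. Of 18 macrophage and Kupffer cell markers 13 were lower and none was higher, and 17 were lower without R15 2. Clec4f and Timd4, markers of resident Kupffer cells named after their values were seen, did not follow. Clec4f stood at 12, 13.1, 16.4 and 32.9 FPKM in DDC and 4.24, 54 and 4.95 in R15, and Timd4 at 1.12, 1.04, 1.63 and 2.77 and 0.63, 4.98 and 0.641, so that R15 2 had the highest level of both among the 11 libraries. Cx3cr1, of monocyte-derived macrophages, fell from 22.6–35.8 to 1.37–5.05 FPKM and Ccr2, the receptor of CCL2, from 13.2–17.8 to 2.1–4.99. The 3 tested neutrophil markers (10 listed) were all lower, and S100a8 and S100a9 among them fell (log2 differences of -3.18 and -3.12). Dendritic cell markers were lower in 6 of 8 tested, among them Flt3 (-1.37) and Itgax (-1.74). MHC class II genes were lower in 8 of 11, but in 3 without R15 1, 4 without R15 3 and 5 without DDC 3. H2-DMa, which helps load peptides on class II molecules, stood at 38.5, 49.8, 53.7 and 50.4 FPKM in DDC and 8.95, 28.1 and 15.5 in R15 (-1.53 ± 0.45 SE, limma adjusted p = 0.014), and was not called without R15 1. Of 18 genes of MHC class I presentation 3 were lower (Psmb8, Psme1 and Psme2, of the immunoproteasome and its activator) and none higher, but 6 were lower without Control 4. Psmb8 (log2 difference -0.56 ± 0.22 SE) lost its call in 11 of the alternatives.

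B cell and plasma cell markers were higher in 4 of 7 tested (10 listed) and lower in 1. Jchain, which joins secreted IgA and IgM, stood at 9.87, 9.51, 8.82 and 18.7 FPKM in DDC and 32.7, 159 and 53.3 in R15 (2.45 ± 0.48 SE, limma adjusted p = 0.0015), against 35.2 to 79.8 in Control. Mzb1, a chaperone of antibody-secreting cells, rose from 0.651–1.16 to 2.48–5.91 FPKM. The 469 immunoglobulin gene segments summed to 1470.1 to 2835 FPKM in DDC, to 4140.2, 19510.0 and 5835 in R15 1, 2 and 3, and to 3914 to 8260 in Control. R15 2 thus exceeded every other library. Of 34 tested interferon response genes 10 were higher, near the share over all genes (33.4%), and 4 were lower. The lower count was 1 without R15 1, R15 3 or DDC 4 and 2 without DDC 3. Isg20, an exonuclease against viral RNA, rose from 6.37–6.5 to 10.7–11.4 FPKM (0.70 ± 0.06 SE, limma adjusted p = 1.2e-05), and the RNA sensor gene Ddx58 by 0.55. Of 18 tested genes of mucosal defence 5 were lower, near the share over all genes (28.8%), and none was higher. Slpi, a protease inhibitor, stood at 1.91, 9.06 and 2.19 FPKM in R15 1, 2 and 3 against 11.4 to 16.9 in DDC.

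Endothelial markers were higher in 13 of 15, with a median of 1.65, but in 6 without R15 2 and in 8 without R15 3 or without DDC 2. Kdr, the VEGF receptor of endothelium, stood at 3.97, 0.875, 1.87 and 2.96 FPKM in DDC and 5.66, 17.8 and 14.6 in R15 (1.96 ± 0.58 SE, limma adjusted p = 0.014), against 8.37 to 44.4 in Control, and lost its call without R15 2. Ptprb, an endothelial phosphatase, stood at 3.59, 1.08, 2.56 and 3.6 and 7.87, 31 and 22.3 FPKM. Vwf, the clotting factor stored by endothelium, stood at 0.848, 0.852, 1.55 and 1.54 and 2.23, 11.5 and 7.42. In all 3 the lowest R15 library was R15 1, which also had the lowest marker sum, a sum that includes these genes. Of 19 tested hepatocyte markers 8 were higher and 1 lower, a call lost without R15 1. Alb, the albumin gene, had 1272, 836, 1159.5 and 843 FPKM in DDC and 1770.0, 1432 and 1989.8 in R15 (0.76 ± 0.19 SE, limma adjusted p = 0.0049), and Ttr, a plasma carrier of thyroid hormone, rose by 0.75. Alb was not called when no filter on low values was used. Tat, a tyrosine-degrading enzyme, rose from 3.66–7.12 to 16.1–22 FPKM, above every Control library (7.26 to 12.1). The defining hepatocyte gene Cyp2e1, named after its value was seen, stood at 1.02 to 1.83 FPKM in R15 and 0.185 to 1.53 in DDC and did not pass. Rgs5, in many tissues a marker of mural cells, fell from 414–500.3 to 157–199.7 FPKM (-1.37 ± 0.21 SE, limma adjusted p = 0.00033) and stayed above the Control range of 27.3 to 57.6. Msln, the mesothelial surface protein mesothelin, had 47.4, 48, 76.7 and 44.8 FPKM in DDC and 12.2, 20.5 and 8.77 in R15 (-1.94 ± 0.28 SE, limma adjusted p = 0.00022). Of 5 tested markers each of stellate cells and fibroblasts (15 listed) and of mesothelium (9 listed), 2 were higher and 1 lower. In the stellate cell list 1 was higher without DDC 1, DDC 3, DDC 4, R15 2 or R15 3, and 3 were lower without R15 2 and 2 without Control 2 or Control 4. The red cell genes Hba-a1 and Hbb-bs, the only 2 of 8 listed erythroid genes past the filter, rose by 1.24 and 2.03. Trac, a T cell receptor chain, was higher (0.96 ± 0.36 SE, limma adjusted p = 0.039) and Il7r, a cytokine receptor of lymphocytes, lower (-1.15 ± 0.17 SE, limma adjusted p = 0.00026), and the call of Trac was lost without DDC 1, DDC 3, R15 2 or R15 3. None of the 18 tested genes of pancreatic acinar cells (19 listed) or the 3 of gastric mucous cells (7 listed) passed, and 1 of the latter passed, lower in R15, when only the DDC and R15 libraries entered the fit.

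Among complement and acute phase genes 9 of 21 tested (26 listed) were higher and 4 lower, or 2 lower without R15 1. Vtn, which encodes the plasma and matrix protein vitronectin, stood at 22.5, 12.3, 14.5 and 10.7 FPKM in DDC and 207, 117 and 208 in R15 (3.48 ± 0.31 SE, limma adjusted p = 1.2e-05). Its lowest R15 library was R15 2, and R15 1 and R15 3 exceeded every Control library (73.3 to 159.9). Apcs, serum amyloid P, rose from 9.6–12.3 to 24.9–35.3 FPKM, and C1ra and Cd59a, a protease of the classical complement pathway and a surface brake on complement, by 1.04 and 0.85.

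The largest rises included several genes outside these groups. Msmp, a small secreted protein, stood at 0.534, 0.0414, 0.0817 and 0.215 FPKM in DDC and 21.9, 14.8 and 19 in R15 (4.0 ± 0.19 SE, limma adjusted p = 6.7e-07), against 11 to 18.2 in Control. Fmo2, a flavin-containing monooxygenase, rose from 8.09–11.7 to 95.4–118 FPKM (3.38 ± 0.12 SE, limma adjusted p = 3.1e-07), and Akr1c20, an aldo-keto reductase, by 2.46. The carboxylesterase genes Ces1d and Ces3a rose from 59.2–83.5 to 336–463 and from 0.0607–0.395 to 6.62–22 FPKM, the latter above every Control library (1.31 to 5.4). Both belong to families of similar genes, so reads may be split among copies. Lamc3, a laminin chain, stood at 17, 14.8, 9.27 and 14 and 129, 70.9 and 125 FPKM, with R15 2 lowest. Prelp, a matrix proteoglycan, rose from 8.18–10.4 to 58.7–68.8 FPKM (2.62 ± 0.10 SE, limma adjusted p = 4e-07). Fxyd1, a regulator of the sodium pump, rose by 2.49, and C2cd4b by 2.87. Chil4, a chitinase-like protein, stood at 3.49, 6.47, 11.4 and 10.2 FPKM in DDC and 128, 357 and 121 in R15 (4.43 ± 1.70 SE, limma adjusted p = 0.043). Its call was lost in 11 of the alternatives, its Control values ran from 0.35 to 417 FPKM, and a close copy, Chil3, makes its count uncertain. Wfdc18, a small secreted protein with a protease inhibitor fold, was among the largest falls, from 101 to 165 FPKM to 7.34, 28.6 and 6.91 in R15 1, 2 and 3 (-3.35 ± 0.60 SE, limma adjusted p = 0.0008).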

How the data were processed

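Per the labels' protocols, polyadenylated RNA of EpCAM-selected mouse liver cells was made into libraries with Illumina Stranded mRNA Prep, and the submitters' processing notes name build mm10. For the aligner, the counter and the annotation nothing is stated in the labels or the file header. The deposited values are FPKM, in 1 table with a column per mouse and gene lengths. Each value was multiplied by gene length plus 1 and divided by the smallest nonzero product of its library, taken as 1 read. By this step 100% of nonzero values came out as whole reads (tolerance 0.001). The depths given are sums of these inferred reads. The 37 mitochondrial genes are all listed at 0 and give no check of RNA quality.

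Genes that reached an FPKM of 1 in 3 or more of the 11 libraries were tested on log2(FPKM + 1) with limma 3.58.1 in R 4.3.3, with trended empirical Bayes variances, all 3 groups in 1 fit, a 2-sided test and Benjamini-Hochberg adjustment over all genes tested. A fold on this scale understates the change of low genes. Group sizes of 3 and 4 mice limit the precision. The fit takes 1 spread per gene for all groups, though the mean log2 variance was 0.109 in Control, 0.041 in DDC and 0.099 in R15. An SE given above can thus reflect the spread among Control libraries. In simulated data with these depths and group sizes, 28%, 58.3%, 80.9% and 91.7% of genes changed 1.25, 1.5, 2 and 4 times were recovered. Only 47 to 50 genes of each size were changed among 14958, a far smaller share than was called here. The adjustment is stricter with so few changed genes, so these rates do not give the power of this comparison.

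The members and gene lists were chosen with earlier results of these data known. Named genes were the 12 largest rises and 12 largest falls (past the threshold, a group mean reaching 5 FPKM, groups not overlapping, no clone names or immune receptor segments), up to 4 members per list with the smallest p, and a set of genes of the study's subject. Others are said to be named after their values were seen. Alternatives changed the pseudocount, filter, scaling, variance model, samples, replicate block and method. Motif letters were searched in RefSeq promoters of build GRCm38.p6. Results of some named genes are not reported here.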

Additional observations from a re-analysis of the deposited data

Results flagged for a closer look

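Among 237 named genes, the 4 DDC libraries of 11 genes held 1 value that stood apart from the others by Dixon's test at the 95% level, which chance gives in about 1 of 20 groups. All values are FPKM. In DDC 3, Alg8 was at 9.369 where the others were at 8.44 to 8.533, Krt19 at 481 against 411.6 to 418.6, Msln at 76.7 against 44.82 to 47.99, and Slpi at 16.94 against 11.4 to 11.72. In the same library Ezh1 was low, at 7.954 against 8.348 to 8.407. In DDC 4, Jchain was at 18.68 against 8.822 to 9.867, Hba-a1 at 1.092 against 0.7252 to 0.7775, and Il7r at 2.956 against 2.375 to 2.423, while Gata6 was low at 27.55 against 31.82 to 32.32. In DDC 1, G6pdx was low at 36.89 against 38.45 to 38.75 and Tat high at 7.118 against 3.662 to 3.934.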

How the results depend on the processing

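The count of changed genes was 9496, and 9351 to 9504 under the other scalings and pseudocounts, 9423 with limma voom on whole reads, 10914 of 26195 with no filter and 7160 of 10782 with a filter at FPKM 5. The counts at 2 times or more moved with the pseudocount, from 540 higher and 890 lower to 977 and 1225 at a pseudocount of 0.1 and to 195 and 345 at 5, and were 987 and 1256 with voom. Leaving out 1 library at a time gave 8396 to 9674 changed genes, 4465 to 5182 higher, 3930 to 4496 lower, and at 2 times or more 475 to 542 higher and 750.0 to 1035 lower. Of 5864 fits of 236 named genes over 25 alternatives, 5781 kept direction and side of the threshold, 53 lost the threshold, 21 gained it and 9 changed sign. The sign changes were in genes not called. Nfyb was at 0.011 on the log2 scale with libraries rescaled to 1 total, and Spp1 at 0.012 with that scaling and at 3.6e-15 with quantile normalization. Slc10a2 was at 0.086 with rescaling, 0.055 with the replicate block, 0.0076 without DDC 1 and R15 3, 0.099 without DDC 4, 0.0060 without R15 1 and 0.082 without R15 3. The cause was not tested.

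The replicate numbers only name separate mice. Deviations of same-numbered DDC and R15 libraries correlated at -0.16, -0.04 and -0.27 over genes, and DDC 1 with R15 3 at 0.60, so the numbers were not taken as pairs. With the replicate block 9056 genes changed, 4873 higher and 4183 lower. Depth of 49339240 reads or more leaves genes under FPKM 1 the least certain.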

Other observations

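Classes of genes differed in direction. Of 182 tested immunoglobulin and T cell receptor segments, 60 were higher and 2 lower in R15, with a median of 1.37 on the log2 scale. Of 558 tested long noncoding RNA genes, 256 were higher and 93 lower (median 0.22), and of 755 pseudogenes 86 were higher and 279 lower (median -0.16). Protein-coding genes held 4567 higher and 3866 lower of 12959. Among the 447 genes with a mean of at least 100 FPKM, 94 were higher and 235 lower, with a median of -0.26.

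Some genes outside the lists and the naming rule were picked after their values were seen. Rspo3, an enhancer of Wnt signalling, stood at 0.63, 0.451, 1.38 and 0.927 FPKM in DDC and 2.61, 13.6 and 13.5 in R15 (2.33 ± 0.46 SE, limma adjusted p = 0.0015), and Mdk, the growth factor midkine, at 10.9, 13.3, 11.1 and 8.98 and 49.3, 40.1 and 38.7 (1.86 ± 0.18 SE, limma adjusted p = 2.2e-05). Ltbp4, which holds latent TGF beta in the matrix, and Cbs, an enzyme of homocysteine breakdown, rose by 1.89 and 1.94. Among falls, Il1rn, the antagonist of the interleukin-1 receptor, stood at 79.6, 74.1, 78.9 and 64.9 FPKM in DDC and 8.78, 11.8 and 9.32 in R15 (-2.79 ± 0.23 SE, limma adjusted p = 8.3e-06). Cdh17, an intestinal cadherin, stood at 11.1, 9.8, 9.52 and 10.5 and 0.622, 0.479 and 0.163 (-2.99 ± 0.68 SE, limma adjusted p = 0.0034), and Mt2, a metallothionein, at 119, 114, 157 and 177 and 19.9, 44.1 and 13 (-2.57 ± 0.35 SE, limma adjusted p = 0.00017). Rbm3, an RNA-binding protein known for its induction by cold, fell by 1.95 on the log2 scale.

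In 887 of the genes tested every R15 library lay above every DDC and every Control library, and in 293 below all of them. C1s1, a protease of complement, was among the former and had 18.4, 12 and 16.6 FPKM in R15 against 2.76 to 5.55 in DDC and 0.999 to 2.32 in Control (1.72 ± 0.23 SE, limma adjusted p = 0.00014).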
